A study of Mus musculus with 6 samples.

Results

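Trophoblast and placenta-linked genes were followed in the murine melanoma line 4434, which carries mutated Braf. The set held 10 genes of the 18193 genes that the arrays name singly, and its members were taken by symbol. Plet1 and Rhox5 were chosen by their higher values in + dox than in − dox arrays of this same data set, and Cdx2, Eomes, Elf5, Tfap2c, Hand1, Gcm1, Rhox6 and Rhox9 entered by what they are known for, to ask whether trophoblast regulators followed. The arrays carried 17 probe sets with exactly 1 of these symbols. They belonged to 9 of the 10 genes, and Gcm1 was not analysed here. The 4 probe sets of Plet1 and Rhox5 are described without a test, since their rise chose them.

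Both groups carried a doxycycline-inducible lentiviral vector with murine Oct4, Sox2, Klf4 and a blasticidin resistance gene, and a second vector for the transactivator coupled to mCherry. Partially reprogrammed cells (+ dox, 3 arrays) received doxycycline and were selected with blasticidin, and control cells (− dox, 3 arrays) were kept without doxycycline. RNA of both groups came from day 20. The factors, doxycycline and the selection cannot be told apart in this comparison, and whether each array stands for its own culture is not stated. A p-value here sets the difference against the spread among 3 arrays of a group, which may be technical.

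The trophoblast is the first lineage set aside in the mammalian embryo and builds most of the placenta. In the mouse, Tead4 acts upstream of Cdx2, and Cdx2, Eomes, Elf5 and Tfap2c keep trophoblast stem cells dividing. Hand1 drives the formation of giant cells and Gcm1 that of the syncytiotrophoblast in the labyrinth. Oct4 and Cdx2 oppose each other when inner cell mass and trophectoderm separate. Plet1 encodes a surface protein of early trophoblast and of epithelial progenitors, and Rhox5 is the founding gene of a homeobox cluster on the X chromosome that DNA methylation silences in many somatic cells.

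The windows of 250 bases before the RefSeq start (build GRCm38.p6) of Plet1, Rhox5 and Cdx2 are shown because the first 2 genes rose while Cdx2, which shares a motif with Plet1, did not pass the test. Capitals mark every CG and the octamer ATTTGCAT on either strand, the letters that Oct4 and its relatives are known to read.
Plet1 (chr9:50494275-50494524, plus strand): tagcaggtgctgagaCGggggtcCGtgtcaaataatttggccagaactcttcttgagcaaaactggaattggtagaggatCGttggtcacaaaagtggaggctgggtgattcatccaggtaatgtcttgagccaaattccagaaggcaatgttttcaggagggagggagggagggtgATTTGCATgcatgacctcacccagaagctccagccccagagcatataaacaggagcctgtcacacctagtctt
Rhox5 (chrX:37754358-37754607, plus strand): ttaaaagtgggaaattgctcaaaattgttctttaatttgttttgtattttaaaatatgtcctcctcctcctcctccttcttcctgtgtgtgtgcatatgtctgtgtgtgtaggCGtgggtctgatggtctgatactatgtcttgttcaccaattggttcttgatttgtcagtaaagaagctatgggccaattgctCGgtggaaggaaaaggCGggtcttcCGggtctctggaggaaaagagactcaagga
Cdx2 (chr5:147307250-147307499, minus strand): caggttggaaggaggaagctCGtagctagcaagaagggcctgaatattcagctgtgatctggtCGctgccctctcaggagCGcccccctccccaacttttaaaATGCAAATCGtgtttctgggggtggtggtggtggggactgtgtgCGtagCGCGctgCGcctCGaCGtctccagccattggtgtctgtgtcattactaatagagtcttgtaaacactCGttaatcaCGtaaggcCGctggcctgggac

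The octamer began 73 bases before the start of Plet1, and on the other strand, as ATGCAAAT, 147 bases before that of Cdx2. Of 32851 such windows, 1.6% held it on either strand. Plet1 also held TATAAA 30 bases before its start, as did 12.4% of windows somewhere on either strand. The motif of TFAP2 factors, GCCNNNGGC, lay 16 bases before the start of Cdx2 (13.7% of windows), and the TEAD motif CATTCC lay 173 bases before 1 of 2 starts of Elf5 (12.6%). The motifs do not share letters in these windows, and a match is a description of the sequence only. The window of Plet1 held 3 CG, that of Rhox5 held 4 and that of Cdx2 held 13, against a median of 6 over all windows (quartiles 2 and 16). Windows were found for 6 of 10 members, the others being Eomes, Elf5 and Gcm1; Rhox6, Rhox9, Hand1 and Tfap2c had none in the table.

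Before the members, the arrays as a whole bear on their values. The first principal component over 45037 probe sets (57.5% of the variance) put + dox 1 at −15.7, between + dox 2 and 3 (−58.6 and −72.7) and the − dox arrays (37.5 to 59.1). The second component set − dox 1 off from all others. Column medians lay between 5.33 and 5.37. The factors that the vector carries did not pass the test in either direction. Sox2 went against the label, with 7.53, 7.13 and 6.93 in + dox and 7.56, 8.04 and 8.11 in − dox arrays (1416967_at, −0.71, limma adjusted p = 0.140, and −1.04 with an adjusted p of 0.00744 without both arrays numbered 1). Pou5f1, the gene of Oct4, had 4.77, 5.32 and 4.92 in + dox and 4.13, 4.21 and 4.42 in − dox arrays (0.75, adjusted p = 0.0754), and the 2 probe sets of Klf4 had −0.58 and 0.16. Whether these probe sets read the vector's transcripts was not tested, so + dox and − dox are the names that the labels give. Of 8 melanocyte markers limma called 0 (0 of 16 probe sets with an unadjusted p under 0.05, against 18.5% of all probe sets). Their summed level covered 8.11 to 8.34 in + dox arrays and 8.26 to 8.90 in − dox arrays (log2). The pigment genes Tyr, Tyrp1 and Mlana stayed between 2.64 and 4.03 and Pmel between 5.25 and 5.43, while Mitf, the master regulator of melanocytes, had 6.41, 6.83 and 6.17 in + dox and 8.15, 6.87 and 6.67 in − dox arrays in its brighter probe set. The summed level of 5 keratinocyte markers covered 8.46 to 9.19 in + dox arrays and 6.99 to 7.41 in − dox arrays, with Krt14 the 1 gene called. Of 10 keratinocyte probe sets 2 were called (20%, against 2.53% of all probe sets). Krt14 differed by 3.67 and 2.46 in its called probe sets and by −0.11 in another. Krt5 differed by −0.05, Krt1 by 0.07, Krt10 by 0.55 and the probe sets of Trp63 by −0.36 to −0.02. The median change of the 5 markers was 0.07. The summed level of 6 fibroblast markers covered 9.12 to 9.88 in + dox arrays and 9.93 to 10.8 in − dox arrays, with 0 called. Of their 11 probe sets 2 had an unadjusted p under 0.05 (18.2%, near the 18.5% of all probe sets). Col3a1 was the brightest of them (9.51, 8.84 and 8.14 in + dox and 9.68, 10.25 and 10.60 in − dox arrays), Dcn differed the other way (0.85), and probe sets of the other 4 genes had differences between −0.10 and 0.15. Their part in the results below was not tested, and in bulk RNA fewer cells of a type and less RNA per cell cannot be told apart.

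Plet1 stood at 10.33, 10.82 and 11.69 in + dox arrays 1, 2 and 3, against 3.54, 4.61 and 3.94 in − dox arrays 1, 2 and 3 (probe set 1423933_a_at, log2 RMA value). Every + dox array lay far above every − dox array. The means were 10.95 ± 0.69 in + dox and 4.03 ± 0.54 in − dox cells (SD, n = 3 each), a difference of 6.92 on the log2 scale. A second probe set, 1454254_s_at, had 8.82, 9.24 and 10.22 in + dox against 3.49, 4.03 and 3.81 in − dox arrays, a difference of 5.65. The groups again did not overlap, and + dox 3 was the highest and + dox 1 the lowest of its group in both probe sets.

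The third probe set of Plet1, 1423934_at, did not show this difference. It read 5.96, 5.85 and 5.94 in + dox against 5.81, 5.82 and 5.73 in − dox arrays, so the group means lay 0.13 apart, although the groups just did not overlap. The platform annotation ties it to the same transcript record as 1423933_a_at, and which part of the transcript each one reads was not analysed here. In − dox cells 1423933_a_at was below the lower quartile of its own array (3.84 to 3.90) in 1 of 3 arrays and 1454254_s_at in 2 of 3, so the size of the rise is approximate. With any 1 array left out, the difference of 1423933_a_at stayed between 6.54 and 7.22.

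Rhox5 behaved differently within the + dox group. Its single probe set (1423429_at) read 5.43, 9.36 and 11.42 in + dox arrays 1, 2 and 3, against 5.48, 5.29 and 5.30 in − dox arrays. Array + dox 1 lay inside the range of the − dox arrays, and + dox 2 and 3 lay 4.0 and 6.06 above their mean. The group means were 8.74 ± 3.04 in + dox and 5.36 ± 0.11 in − dox cells (SD, n = 3 each), a difference of 3.38. It was 5.03 without + dox 1 and 2.04 without + dox 3.

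**Figure D1:**
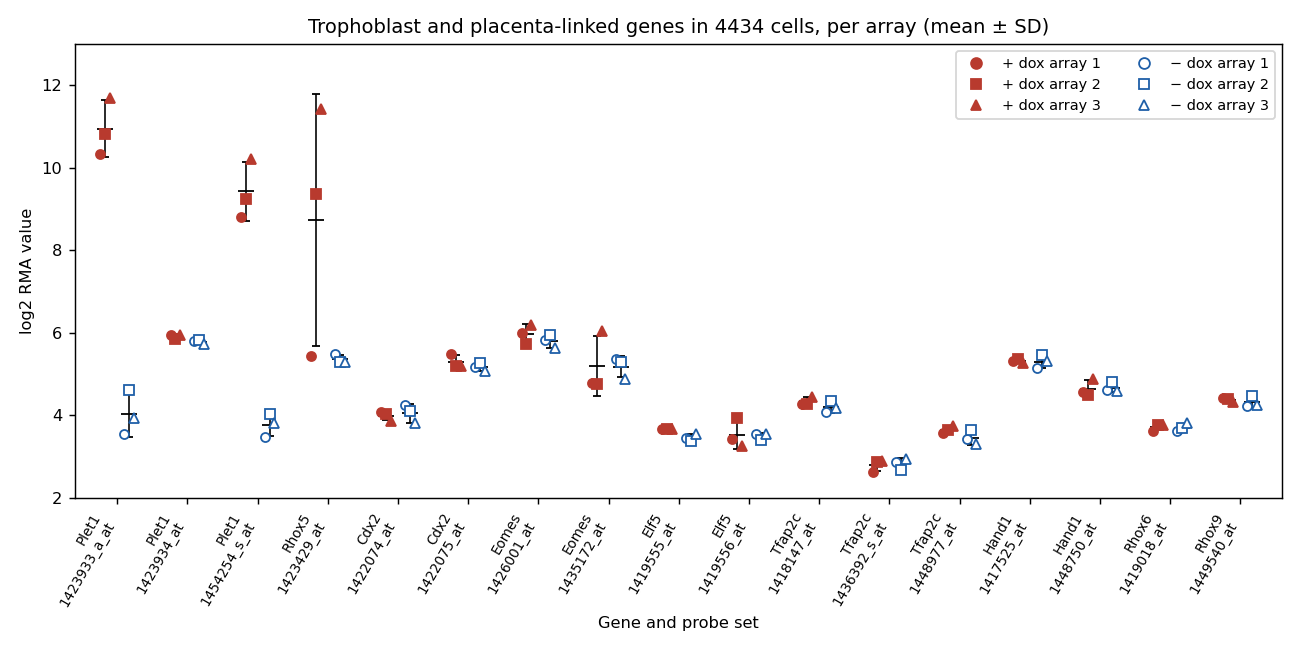
Vertical axis, log2 RMA value of all 17 probe sets of the 9 measured genes (horizontal axis) in each array, with + dox arrays as filled red and − dox arrays as open blue symbols and the mean ± SD of 3 arrays in black. In 2 of 3 Plet1 probe sets all + dox arrays lie above 8.8, Rhox5 is high in + dox 2 and 3 and at 5.43 in + dox 1, and all other members lie between 2.63 and 6.19 in both groups.

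None of the measured members that entered by what they are known for passed the test. Plet1 and Rhox5 were not tested. Of 13 probe sets of Cdx2, Eomes, Elf5, Tfap2c, Hand1, Rhox6 and Rhox9, limma called 0 in either direction at an adjusted p of 0.05, with adjustment over all 45037 probe sets, and 0 had an unadjusted p under 0.05 (18.5% of all probe sets had). Over all probe sets the test called 1138 (2.53%), of which 740 were higher (1.64%) and 398 lower (0.884%) in + dox cells. Differences of the 13 ran between −0.06 and 0.21 with a median of 0.04, beside a median of 0.00 over all probe sets, and adjusted p values ran between 0.282 and 0.989. In all 13 the 95% confidence interval ended short of a 2-fold change either way, that is within ±1 on the log2 scale. Without 1 probe set of Eomes the intervals lay between −0.40 and 0.53.

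Cdx2, the caudal-type homeobox gene that starts the trophectoderm programme, had 5.49, 5.21 and 5.21 in + dox and 5.18, 5.26 and 5.08 in − dox arrays (1422075_at, difference 0.13, SE 0.12, interval −0.15 to 0.41, limma adjusted p = 0.634). The groups overlapped. Its other probe set differed by −0.06 (interval −0.40 to 0.28).

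Eomes, a T-box factor of trophoblast stem cells, had 6.01, 5.72 and 6.19 in + dox and 5.84, 5.96 and 5.63 in − dox arrays (1426001_at, difference 0.16, interval −0.20 to 0.53, limma adjusted p = 0.654). In the other probe set, 1435172_at, it had 4.79, 4.77 and 6.04 in + dox and 5.36, 5.30 and 4.89 in − dox arrays. Array + dox 3 was the highest of the 6 there and + dox 1 and 2 were the lowest, so the difference of 0.02 came with the widest interval of the 13 (−0.84 to 0.87).

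Elf5, an ETS factor that holds cells in the trophoblast lineage, was the 1 member of these 7 genes with a probe set whose groups did not overlap. It read 3.67, 3.67 and 3.68 in + dox and 3.46, 3.39 and 3.55 in − dox arrays (1419555_at, difference 0.21, SE 0.09, interval −0.01 to 0.42, limma adjusted p = 0.282). An exact permutation test gave a two-sided p of 0.1, the smallest that 3 arrays against 3 allow. Groups did not overlap in 1 of 13 probe sets of these genes, and in 23.4% of all probe sets (12.0% with all + dox arrays higher and 11.4% with all lower). All 6 of its values were under the lower quartile of their arrays, and its other probe set differed by 0.04.

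Tfap2c, the AP-2 gamma factor, had differences of 0.14, −0.04 and 0.20 over 3 probe sets. The one with the largest difference, 1448977_at, read 3.58, 3.65 and 3.75 in + dox and 3.43, 3.64 and 3.30 in − dox arrays (interval −0.08 to 0.49, limma adjusted p = 0.436). Hand1, the basic helix-loop-helix factor of giant cells, differed by 0.02 and −0.03. Its 1417525_at had 5.32, 5.38 and 5.28 in + dox and 5.15, 5.46 and 5.31 in − dox arrays, with the + dox arrays inside the − dox range.

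Rhox6 and Rhox9, homeobox genes of the same X-linked cluster as Rhox5 that are expressed in placenta, gave no call. Rhox6 had 3.63, 3.77 and 3.77 in + dox and 3.62, 3.69 and 3.81 in − dox arrays (difference 0.02, interval −0.22 to 0.25, limma adjusted p = 0.957). Rhox9 had 4.43, 4.41 and 4.32 in + dox and 4.23, 4.47 and 4.26 in − dox arrays (difference 0.07, interval −0.18 to 0.31, limma adjusted p = 0.805). In neither gene did + dox 2 and 3 stand above + dox 1 by more than 0.14. Values near the low end of the scale can hide small changes: 4 of the 13 probe sets (1 of Elf5, 2 of Tfap2c and that of Rhox6) were under the lower quartile in all 6 arrays.

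**Figure D2:**
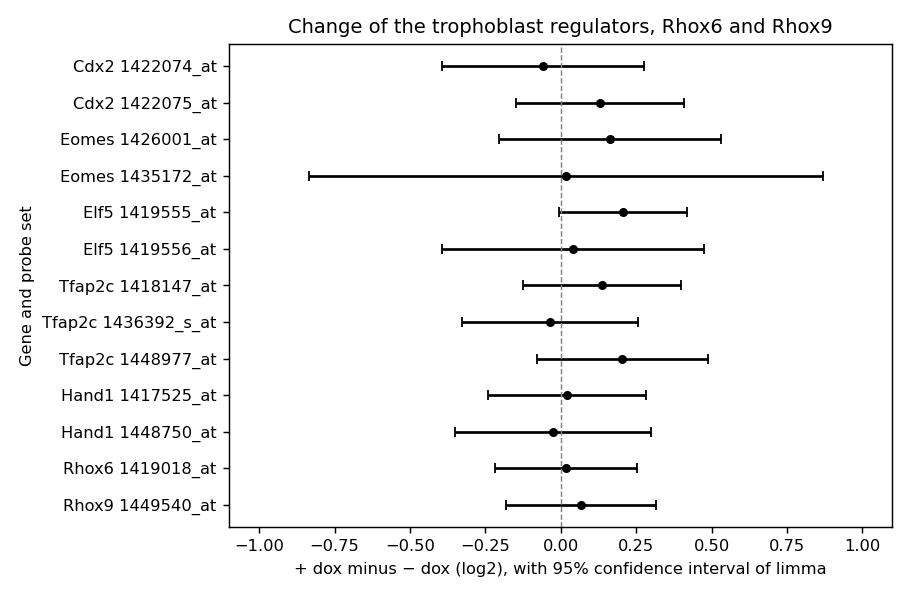
Difference of + dox minus − dox cells on the log2 scale (horizontal axis) with the 95% confidence interval of the limma fit, for each of the 13 probe sets of the trophoblast regulators, Rhox6 and Rhox9 (vertical axis). Points lie between −0.06 and 0.21, every interval crosses 0, and the widest belongs to the Eomes probe set 1435172_at.

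Genes that lie beside Plet1 and Rhox5 on their chromosomes were read to see how far each rise reached. Places were taken from the RefSeq table of GRCm38.p6, with 5 measured genes on each side. Around Plet1 on chromosome 9 limma called 0 of 10 neighbours (0 with an unadjusted p under 0.05), and differences ran between −0.50 and 0.16. The nearest on one side, the opposite-strand transcript Plet1os, had 2.76, 3.03 and 3.04 in + dox and 2.78, 2.92 and 2.84 in − dox arrays. Around Rhox5 on the X chromosome 0 of 10 were called (1 with an unadjusted p under 0.05, Rnf113a1 at 0.59 with a limma adjusted p of 0.145), with differences between −0.32 and 0.59. The 10 around Rhox5 included Rhox6, Rhox9 and Rhox13, and 4 of the 33 Rhox genes in the table had a probe set of their own. Over all probe sets 2.53% were called and 18.5% had an unadjusted p under 0.05. A count of 0 calls among 10 genes is near that share and so says little about either locus.

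Of 6 wider lists, placental apart from that of family relatives of the members, 3 held called genes, in both directions. Of 45 probe sets for 20 other genes of trophoblast stem cells, 2 were called higher and 2 lower (8.89%, against 2.53% of all probe sets), and they belonged to 2 genes. With 1 probe set per gene, 2 of 20 were called (10%, against 4.87% of all genes). Groups did not overlap in 15 of the 45 (33.3%, against 23.4% of all). Tead4, the TEAD factor upstream of Cdx2, had 8.44, 8.23 and 8.50 in + dox against 5.64, 6.10 and 5.67 in − dox arrays. The groups lay far apart in both of its probe sets, with rises of 2.59 (SE 0.155, limma adjusted p = 0.00138) and 1.14 (adjusted p = 0.0158). The larger held with any 1 array left out, while the smaller missed the test when − dox 2, + dox 3 or − dox 3 was dropped (0.0567, 0.0837 and 0.0902).

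Satb1, a chromatin organiser that helps keep trophoblast stem cells undifferentiated, fell. It had 6.55, 6.49 and 5.32 in + dox against 9.33, 8.16 and 8.18 in − dox arrays (1416008_at, −2.44, limma adjusted p = 0.0465), and 1416007_at fell by 2.19. Dropping + dox 2, + dox 3, − dox 2 or − dox 3 lost both calls, with an adjusted p of at most 0.157, and the other 3 probe sets of the gene had changes between −0.28 and 0.08. The list's median change was 0.02.

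Genes of the spongiotrophoblast, of giant cells and the placental cathepsins gave 4 higher and 1 lower of 34 probe sets (14.7%, against 2.53% of all), from 3 of 18 genes, with 3 of the 5 calls from Timp3. With 1 probe set per gene, 3 of 18 were called (16.7%, against 4.87% of all genes). Groups did not overlap in 11 of the 34 (32.4%), with the + dox arrays higher in 10. Bhlhe40, a basic helix-loop-helix repressor with wide expression outside the placenta, had 11.05, 10.87 and 11.03 in + dox against 9.23, 9.08 and 9.07 in − dox arrays (1.86, SE 0.10, limma adjusted p = 0.000808) and held its call with any 1 array left out. Timp3, an inhibitor of matrix metalloproteinases that many other tissues also express, rose in 3 of 4 probe sets. It had 8.90, 6.44 and 7.67 in + dox against 4.62, 3.90 and 4.05 in − dox arrays in the probe set with the largest rise (3.48, adjusted p = 0.0394). Dropping + dox 3, − dox 2 or − dox 3 lost these calls, and dropping − dox 1 lost that of 1449334_at, with an adjusted p of at most 0.172.

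Plac1, an X-linked gene of trophoblast, fell. It had 5.65, 5.35 and 4.97 in + dox against 6.22, 6.45 and 6.56 in − dox arrays (−1.09, SE 0.19, limma adjusted p = 0.0436), and the groups did not overlap. Dropping + dox 2, + dox 3, − dox 2 or − dox 3 lost the call, with an adjusted p of at most 0.168. Other markers of these placental cells gave no call. Tpbpa, the spongiotrophoblast marker, had changes of −0.03 to 0.13 over 3 probe sets. Ascl2, which that layer needs, had 0.04 to 0.17, and the 8 placental cathepsins had −0.12 to 0.31. Tpbpb had 0.11 and 0.21 and Pcdh12 had −0.02 to 0.25. Groups did not overlap in 1456246_x_at of Tpbpb and 1450473_at of Pcdh12, as in 23.4% of all probe sets. By mean level, Tpbpa lay between percentiles 2.88 and 9.90, Ascl2 between 0.36 and 41.0 and the cathepsins between 1.37 and 34.7. Values near the low end can hide changes. The list's median change was 0.04.

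The placental prolactin genes, hormones made by giant cells and spongiotrophoblast, showed the smallest range of the 6 lists. Of 21 probe sets for 17 genes limma called 0 (0 with an unadjusted p under 0.05), changes ran between −0.12 and 0.25, and the groups overlapped in all 21, against a share of 23.4% without overlap over all probe sets. All 21 were among the dimmest 40% of probe sets, and only 6 lay above the dimmest 20%. Such low values can hide changes. Labyrinth and syncytiotrophoblast genes gave 0 calls among 32 probe sets of 17 genes (8 with an unadjusted p under 0.05, or 25%, against 18.5% of all probe sets; 9 without overlap; median change 0.06). The lactate transporter gene Slc16a1 had 11.95, 11.73 and 11.96 in + dox and 11.26, 11.28 and 11.42 in − dox arrays (0.56, adjusted p = 0.0541). Wnt7b, a Wnt ligand needed where chorion and allantois fuse, had 9.10, 6.66 and 6.73 in + dox and 10.11, 10.97 and 10.42 in − dox arrays (−3.00, adjusted p = 0.0743).

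Imprinted genes with roles in placenta gave 0 calls among 49 probe sets of 18 genes (11 with an unadjusted p under 0.05, or 22.4%, near the 18.5% of all probe sets; 12 without overlap; median change −0.01). Peg3, a paternally expressed zinc finger gene, had 7.79, 5.96 and 5.90 in + dox and 8.98, 8.90 and 9.37 in − dox arrays (−2.53, limma adjusted p = 0.0593). Its other 4 probe sets had changes of −2.53, −2.35, 0.04 and 0.14. Mest, another paternally expressed gene, had a change of 0.74 (adjusted p = 0.119). Among 20 probe sets of 12 family relatives of the members, 1 passed (5%, against 2.53% of all probe sets). Groups did not overlap in 5 of the 20 (25%, against 23.4% of all). The call was that of Ehf, an epithelial ETS factor related to Elf5, with 5.31, 4.32 and 5.22 in + dox against 3.25, 3.24 and 3.40 in − dox arrays (1.65, limma adjusted p = 0.0338). Dropping + dox 3 or any 1 of the − dox arrays lost this call, with an adjusted p of at most 0.137. Its other 3 probe sets had changes between −0.04 and 2.69, of which 2 passed when + dox 2 was dropped (0.0130 for 1451375_at). Tfap2a, the AP-2 alpha relative of Tfap2c, had −0.72 (adjusted p = 0.119).

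**Figure D3:**
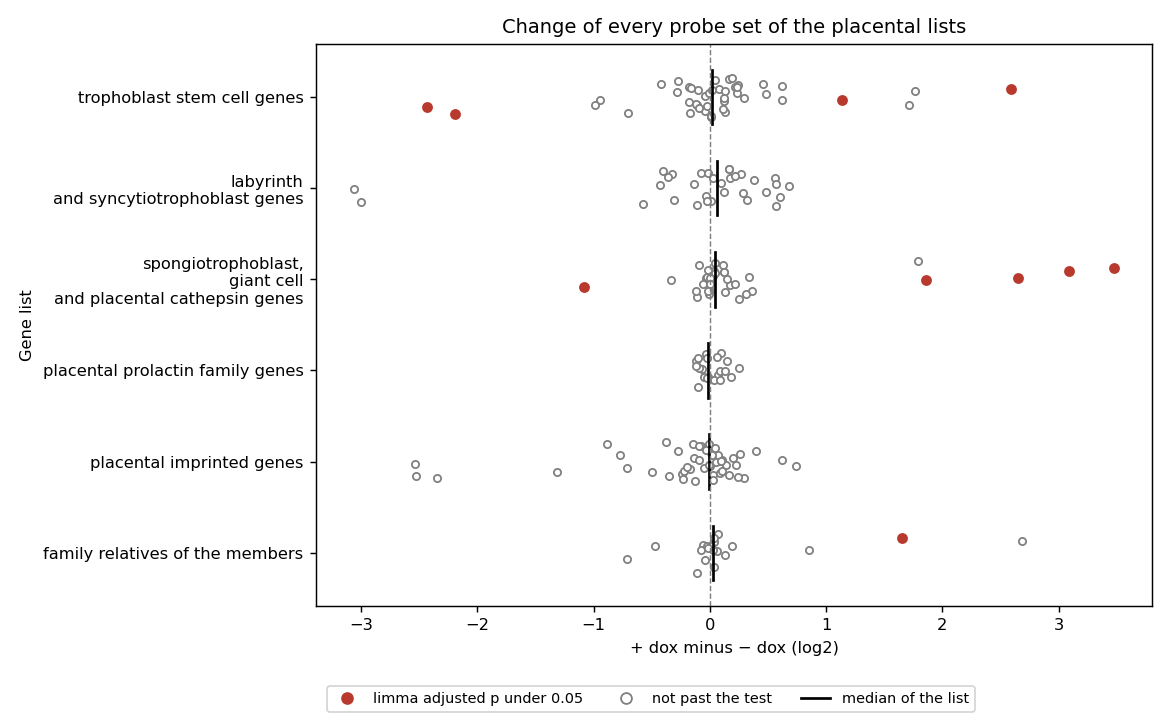
Difference of + dox minus − dox cells on the log2 scale (horizontal axis) for every probe set of the 6 lists (vertical axis), with called probe sets in filled red, others as open grey circles and the median of each list as a black line. The lists are placental apart from that of family relatives of the members, which was gathered by gene family. Medians lie between −0.01 and 0.06, the called probe sets stand on both sides of 0, and all prolactin probe sets lie between −0.12 and 0.25.

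The place of array + dox 1 differed between these genes. It was taken as a percentage of the way from the − dox mean to the mean of + dox 2 and 3, a measure chosen after the values were seen. Among 392 probe sets that were higher by at least 2 in + dox 2 and 3, the median place was 47.3% (quartiles 13.96 and 78.3), and 61 probe sets (15.6%) were within 10% of the − dox mean. Rhox5 was one of those, at 1.46%. Plet1 lay above the upper quartile, at 87.2% and 84.7%.

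Other genes of the lists were spread along the whole way. Among 169 probe sets lower by at least 2 in + dox 2 and 3 the median place was 46.9% (quartiles 33.5 and 62.5). Wnt7b lay at 29.1% and 36.8% and 3 probe sets of Peg3 at 38.6% to 41.0%, so all but 1 of these were inside those quartiles. Gata3, a GATA factor of the trophectoderm, lay at 36.9%, inside the quartiles of the higher probe sets. Plac1 lay at 60.8%, Id1, an inhibitor of DNA binding, at 69.4%, and Satb1 at 72.8% and 75.7%. With + dox 1 left out, Gata3 (2.17, limma adjusted p = 0.0273), Wnt7b (−3.81, adjusted p = 0.00265) and Peg3 (−3.15, adjusted p = 0.00144) passed the test, as did 2351 of all probe sets (5.22%, against 2.53% with all arrays). Leaving out an array that lies between the groups narrows the spread by construction. With + dox 2 or + dox 3 left out the limma adjusted p of Gata3 was 0.315 and 0.323. In the same probe sets as above, that of Wnt7b was 0.230 and 0.240 and that of Peg3 0.199 and 0.196. Tead4 lay at 103% and 117% in its 2 probe sets and Bhlhe40 at 105%. Ehf and Timp3 were highest in + dox 1, at 137% and 180% in 2 probe sets of Ehf and between 159% and 218% in 4 of Timp3.

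**Figure D4:**
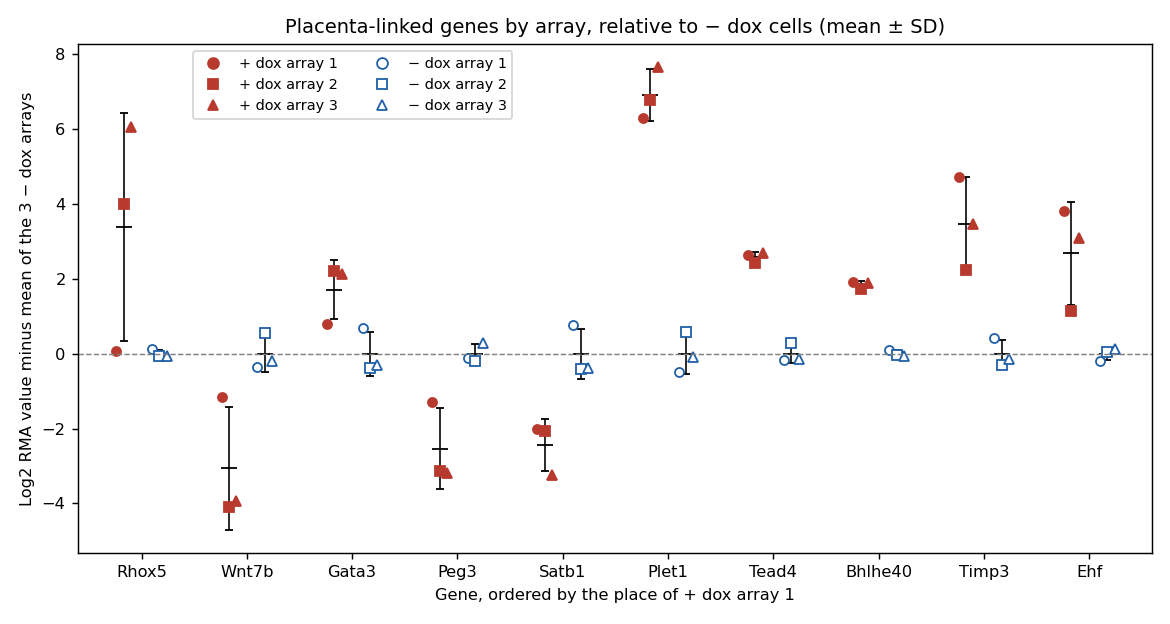
Log2 RMA value minus the mean of the 3 − dox arrays (vertical axis) for 10 genes of the set and the lists, each by its probe set with the largest difference (horizontal axis), with + dox arrays as filled red and − dox arrays as open blue symbols and the mean ± SD of 3 arrays in black. Ehf is shown as a family relative of Elf5. Rhox5 in + dox 1 lies on the − dox arrays (0.07), Wnt7b and Peg3 in + dox 1 lie nearer to them than in + dox 2 and 3, and Timp3 and Ehf are highest in + dox 1.

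Genes most like Plet1 and Rhox5 over the 6 arrays were found by Pearson correlation among 1351 and 1352 probe sets with 1 gene and a range of at least 2, as a description, since all of them share the same arrays and groups. Closest to Plet1 (1423933_a_at) were Ankrd35, Endod1, Tm4sf1, Fam220a and Zfp352, with r between 0.997 and 0.999. Endod1, for example, had 10.17, 10.42 and 10.76 in + dox against 5.58, 6.30 and 6.10 in − dox arrays. Closest to Rhox5 were Hspb1, Plac8, Mpzl2, Akr1c14 and Iigp1, with r between 0.997 and 0.9997. Hspb1, a small heat shock protein gene, had 6.44, 9.57 and 11.14 in + dox against 6.48, 6.42 and 6.28 in − dox arrays. Plac8, a gene named for its expression in placenta, had 3.62, 6.65 and 8.57 in + dox against 3.52, 3.62 and 3.61 in − dox arrays. These 5 genes were chosen by this correlation, so that + dox 1 stood close to the − dox arrays and + dox 3 was the highest follows from the choice.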

How the data were processed

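Total RNA of 4434 cells at day 20 was read on 6 Affymetrix mouse arrays, 3 in each group as the labels give it. The deposited values are log2 expression values, which the authors made with RMA in Chipster (version not given in the sources used here). RMA subtracts background, forces all arrays to one distribution and fits 1 value per probe set, so global shifts between arrays are removed. The log2 scale was read from the values (2.08 to 14.44). After 64 array controls were left out, 45037 probe sets were fitted by lmFit and eBayes of limma 3.58.1 (R 4.3.3), with + dox or − dox as sole term, two-sided tests and Benjamini-Hochberg adjustment over the whole table. Symbols came from the platform annotation: 34945 probe sets had 1, 932 several and 9160 none. Updating them through Entrez identifiers changed 0.

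Members and lists were chosen with earlier results of these data known. Of 146 listed genes 102 were measured. Named were all members and, per list, up to 4 called genes with the largest change, or, with fewer than 2 passing, the 2 lowest in p. Gata3, Id1, the vector's factors, Tpbpa, Tpbpb, Ascl2, Pcdh12, Plet1os, Rnf113a1 and the cathepsins were added after their values were seen. Sequences came from RefSeq. The number of arrays limits the precision, and no detection calls were used. The test was checked on 5 simulated data sets with 200 changed probe sets each. It recovered 1.49% of log2 changes of 0.5, 44.5% of changes of 1 and 82.1% of changes of 2, and 4.28% of its calls were false. In that setting many changes of 1 or less went without a call. The simulated noise was independent between probe sets and held no deviation shared across an array. Fewer probe sets were changed than limma called in the data. The rates, that of false calls included, may therefore differ in the real arrays. Alternatives were a replicate block, 1 probe set per gene, filters on dim probe sets, other eBayes settings, other scalings, arrays left out and a stricter threshold.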

Additional observations from a re-analysis of the deposited data

How the results depend on the processing

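The regulators with Rhox6 and Rhox9, and the prolactin genes, gave 0 calls under each alternative that could test them. Filters left fewer to test: 9 of 13 and 6 of 21 probe sets without the dimmest 20%, and 4 of 13 and 0 of 21 without the dimmest 40%, so the last gave no value. Over all probe sets the main count of 1138 (2.53%) was 466 (1.03%) with the replicate number as a block and 136 (0.302%) at an adjusted p of 0.01. It was 5142 (11.4%) without both arrays numbered 1, and 111 to 2351 (0.246% to 5.22%) with 1 array left out. With 1 probe set per gene 4.87% were called, without the dimmest 40% 4.46%, with eBayes trend and robust settings 2.24% and with median centring 2.61%. The counts of the lists below are to be read beside these shares. Stem cell genes (4 calls) had 2 with 1 probe set per gene, 1 at 0.01, 11 without both arrays numbered 1 and 1 to 7 with 1 array left out. Spongiotrophoblast and giant cell genes (5 calls) had 3 with the block, 3 with 1 probe set per gene, 1 at 0.01 and 1 to 5 with 1 array left out. Family relatives (1 call) had 0 with the block, with 1 probe set per gene, without the dimmest 40% of probe sets and at 0.01, 3 without both arrays numbered 1, and 0 to 3 with 1 array left out. Labyrinth genes (0 calls) had 1 with 1 probe set per gene, with eBayes trend and robust settings and with median centring, 3 without both arrays numbered 1, and 0 to 2 with 1 array left out. Imprinted genes (0 calls) had 1 with the block and without the dimmest 40%, 7 without both arrays numbered 1, and 0 to 4 with 1 array left out. Without both arrays numbered 1, calls made up 24.4% of stem cell, 17.6% of spongiotrophoblast and giant cell and 15% of family relative probe sets. They made up 9.38% of labyrinth and 14.3% of imprinted ones, against 11.4% of all. One probe set per gene tests fewer probe sets; for the other settings the cause was not tested.

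Same-numbered arrays did not all deviate together (correlations of −0.05, −0.04 and 0.21), so no pairing by number was assumed. Under this pairing as a block, the calls of Plac1, Ehf and 1 probe set each of Timp3 and Tead4 were lost (adjusted p of 0.0959, 0.0547, 0.0708 and 0.0574).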
